A study of Homo sapiens with 3 samples.

Results

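Genes of antibody chains and antibody assembly, 7 in all, are described here: the immunoglobulin lambda constant genes IGLC2 and IGLC3, the lambda variable segment IGLV2-28, the kappa constant gene IGKC, the alpha heavy chain constant gene IGHA1, JCHAIN and MZB1. They were chosen by symbol, and all 7 of them are among the 43913 gene symbols of the count tables, which hold 116 other immunoglobulin segment genes. Counts came from 3 Drop-seq libraries, in which each captured RNA molecule carries a unique molecular identifier (UMI) of its own and a barcode of its cell. A library was made from MM.1S cells grown alone, another from HS-5 cells grown alone and the last from a 4 h coculture of both, with no other treatment. MM.1S is an established human multiple myeloma cell line, a model of malignant plasma cells, and HS-5 is an established human bone marrow stromal cell line, so each stands for 1 line and not for a range of tumours or donors.

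An antibody is built of heavy and light chains. A B cell joins variable, joining and, for the heavy chain, diversity segments in its DNA and splices the transcript to a constant gene, and a clone as a rule uses either a kappa or a lambda light chain. Plasma cells devote much of their RNA to these chains, fold them in the endoplasmic reticulum and secrete them. JCHAIN encodes the joining chain that links IgA and IgM units into polymers, and MZB1 is a cochaperone of the endoplasmic reticulum that aids assembly and secretion of antibody.

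IGLC2 and IGLC3 lie next to each other in the lambda locus, at chr22:22900976-22901437 and chr22:22906342-22906803 (GRCh38, plus strand). Their annotated transcripts are 462 bases long and differ at 4 bases, an identity of 99.1%. The difference nearest to the 3′ end is 135 bases from it, and 58.1% of all 50-base windows of IGLC2 are found letter for letter in IGLC3. A read in such a window cannot be told apart between the genes. The sum of both is therefore given throughout as the lambda light chain level, and the values of each gene alone are uncertain. In the coding parts of 317 bases, 3 bases differ. A stretch of 230 bases is shown because these few differences, in capitals, are all that separates the genes there, at chr22:22901006-22901235 for IGLC2 and chr22:22906372-22906601 for IGLC3.
IGLC2: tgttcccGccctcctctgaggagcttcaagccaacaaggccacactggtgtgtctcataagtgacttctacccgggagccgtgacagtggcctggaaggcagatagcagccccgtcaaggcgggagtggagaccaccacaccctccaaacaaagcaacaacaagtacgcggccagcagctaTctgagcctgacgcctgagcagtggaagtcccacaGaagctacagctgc
IGLC3: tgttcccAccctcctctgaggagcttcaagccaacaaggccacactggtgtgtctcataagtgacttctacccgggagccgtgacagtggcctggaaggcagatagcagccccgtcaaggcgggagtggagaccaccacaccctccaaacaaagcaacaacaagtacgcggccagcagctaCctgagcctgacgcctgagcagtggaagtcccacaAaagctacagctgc

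IGLV2-28, at chr22:22664473-22664907 on the plus strand, is annotated as a variable segment pseudogene. Its exons aligned with those of the functional segment IGLV2-14, at chr22:22758700-22759218 on the same strand, with 277 of 303 aligned bases identical (91.4%). No 50-base window was shared between them. The first 260 aligned bases of IGLV2-28 (chr22:22664473-22664863, spliced) and their 286-base counterpart in IGLV2-14 (chr22:22758741-22759143, spliced) are shown because UMIs of this family fell on both genes. Capitals mark bases that differ or have no partner in the other gene.
IGLV2-28: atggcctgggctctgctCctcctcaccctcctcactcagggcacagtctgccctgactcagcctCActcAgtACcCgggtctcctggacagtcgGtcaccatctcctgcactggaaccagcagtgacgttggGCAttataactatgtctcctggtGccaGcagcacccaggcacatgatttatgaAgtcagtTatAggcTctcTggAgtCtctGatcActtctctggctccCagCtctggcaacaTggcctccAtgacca
IGLV2-14: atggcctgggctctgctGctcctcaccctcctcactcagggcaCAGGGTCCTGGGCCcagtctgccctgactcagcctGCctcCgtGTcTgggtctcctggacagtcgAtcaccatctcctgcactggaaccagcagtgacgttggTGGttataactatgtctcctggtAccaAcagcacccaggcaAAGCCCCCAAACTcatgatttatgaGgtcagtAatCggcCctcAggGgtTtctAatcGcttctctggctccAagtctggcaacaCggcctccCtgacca

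JCHAIN lies at chr4:70655541-70681817, MZB1 at chr5:139387480-139390081, IGKC at chr2:88857161-88857683 and IGHA1 at chr14:105703995-105708665, all on the minus strand. Promoters of immunoglobulin variable genes carry the octamer ATGCAAAT, the binding site of the OCT factors. In the 250 bases before the RefSeq start sites, searched on both strands, the octamer was found for 1.68% of 27305 genes and for neither JCHAIN nor MZB1. Its first 7 letters, ATGCAAA, which every octamer also contains, were found for 4.03% of genes, JCHAIN among them and MZB1 not. The 250 bases before the JCHAIN start (RefSeq, GRCh38.p14, chr4:70666509-70666758, minus strand) are shown with this match in capitals, which describes the letters only.
JCHAIN: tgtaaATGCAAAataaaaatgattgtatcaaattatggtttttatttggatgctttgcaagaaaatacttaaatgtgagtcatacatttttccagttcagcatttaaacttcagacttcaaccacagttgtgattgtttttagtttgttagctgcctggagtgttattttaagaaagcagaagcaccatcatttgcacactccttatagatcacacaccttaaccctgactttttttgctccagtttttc

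The tables hold 3994 barcodes for MM.1S, 3865 for HS-5 and 3963 for the coculture, where the labels state about 4000 cells each. Barcodes with under 200 detected genes were dropped. This left 3947 MM.1S cells in monoculture with 10433017 UMIs (median 2201 per cell) and 3732 HS-5 cells in monoculture with 6142273 UMIs (median 971.5). The 3856 coculture cells were divided by the share of HS-5 transcripts among UMIs of 54 MM.1S-specific and 164 HS-5-specific genes, those at least 50-fold apart between the monocultures. No immunoglobulin gene, nor JCHAIN or MZB1, was used for this. Cells with a share under 0.2 were taken as MM.1S (1513 cells, 1247424 UMIs, median 682) and those over 0.8 as HS-5 (2141 cells, 2567619 UMIs, median 961), while 202 cells in between (5.24%) were left out as possible doublets. Libraries shared 39 to 76 barcodes. MM.1S cells in coculture were thus shallower than in monoculture, and their median mitochondrial share was 3.62% against 6.24%. With 1 library per condition nothing could be tested: library and condition cannot be told apart, and the 95% intervals (exact Poisson for levels, exact binomial for shares and ratios) cover counting error only. The lines bore out their labels in part. Of 12 MM.1S markers 8 had the higher level in the MM.1S monoculture, and of 12 HS-5 markers 10 had it in the HS-5 monoculture. POU2AF1, the B cell OCT coactivator, was at 72.3 UMIs per 1000000 UMIs of the group (CPM) in MM.1S and 1.30 in HS-5 monoculture, and COL1A1, a collagen chain of stromal cells, at 1.63 against 498 CPM. Of the HS-5 markers FN1 (810 against 252 CPM) and CAV1 (457 against 356 CPM) were higher in MM.1S. SDC1, the plasma cell surface marker CD138, was lower in MM.1S (38.1 CPM) than in HS-5 (135 CPM). Of 10 mature B cell markers only CD74 reached a mean of 10 CPM over the MM.1S cells of both cultures. It was at 40.2 CPM in MM.1S and 1.47 CPM in HS-5 monoculture. MS4A1, another of these markers, was near 0 in MM.1S monoculture (1.25 CPM).

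Lambda light chain was among the most abundant RNAs of MM.1S cells and was 2.17-fold lower in coculture. IGLC2 and IGLC3 together were at 44722 CPM (44594 to 44851) in monoculture and at 20589 CPM (20338 to 20842) in coculture, which is 4.47% and 2.06% of all UMIs. The log2 ratio was -1.12 (-1.14 to -1.10). In HS-5 monoculture not 1 UMI of either gene was found among 6142273, where 3 UMIs would be 0.488 CPM. IGLC2 was at 36552 CPM in monoculture and 18699 CPM in coculture, and ranked 2 among all genes of MM.1S cells in both. Its log2 ratio of -0.97 lies just inside the 2-fold limit. IGLC3 was at 8170 CPM and 1890 CPM, a log2 ratio of -2.11 (-2.17 to -2.05), and went from rank 10 to rank 51. IGLC7, another lambda constant gene, was at 364 CPM and 295 CPM, the least lowered of these (log2 ratio -0.30).

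Of the 7 genes, 6 reached a mean of 10 CPM in MM.1S cells, and all 6 were lower in coculture. IGLC3, IGLV2-28 and IGKC were lower by 2-fold or more, 3 of 6, where 5.77% of the 7838 genes compared at this level were. None was higher by 2-fold, against 18.7% of those genes. The median log2 ratio was -1.02 for the 6 genes and 0.24 for all genes compared. Scaled so that the median gene was equal in both cultures, the light chain had a log2 ratio of -1.36, and IGLC2, at -1.21, was then past 2-fold as well. Short genes and ribosomal protein genes lay in the same direction. The shortest 25% of genes (transcripts up to 2161 bases) had a median log2 ratio of -0.12, the longest 25% 0.50, and 81 ribosomal protein genes -0.53. The part of transcript length and depth in the lower antibody RNA was not tested. In MM.1S cells of the coculture, HS-5-specific genes, less their MM.1S monoculture level, were at 1.29% of their level in HS-5 cells of the coculture. The division itself limits UMIs of these genes in MM.1S cells, so this value is no independent measure. With this amount subtracted the light chain ratio was -1.10. Of the 12 HS-5 markers 8 were higher in MM.1S cells of the coculture than of the monoculture. Higher levels were common among all genes compared, whose median log2 ratio was 0.24. Among the 8 were COL6A1 (0.958 and 10.4 CPM, 13 UMIs in coculture) and COL1A1 (1.63 and 5.61 CPM, 7 UMIs in coculture). Only 4 of the 12 reached a mean of 10 CPM, 2 of them higher and 2 lower. The 12 markers summed to 3553 and 5075 CPM. In this sum FN1, which HS-5 cells held at a lower level than MM.1S cells, had 810 and 2234 CPM. Of the 1593 genes at 100 CPM or more on average, IGLC3 was 1 of 9 with a ratio as low as its own, and IGLV2-28 had the lowest.

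The lambda V genes pooled went from 476 CPM in monoculture to 79.4 CPM in coculture, a log2 ratio of -2.57 (-2.89 to -2.30) beside -1.11 for the lambda constant genes pooled. IGLV2-28 was at 272 CPM (2836 UMIs) in monoculture and 32.1 CPM (40 UMIs) in coculture, a log2 ratio of -3.04 (-3.57 to -2.63). It held 57.8% of the UMIs of the lambda V2 family in monoculture and 43.0% (32.8 to 53.7) in coculture. IGLV2-14 was at 113 and 24.9 CPM, IGLV2-11 at 63.7 and 12.02 CPM and IGLV2-23 at 16.1 and 4.81 CPM. All 4 were lower in coculture, with log2 ratios of -3.04 to -1.56. IGLV2-28 shared no 50-base window with IGLV2-14, IGLV2-11 or IGLV2-23, and was 88.8 to 91.4% identical to them. Whether UMIs of 1 rearranged gene were spread over these segments was not tested, and which segment MM.1S cells use was not analysed here. Lambda V genes made up 1.04% of lambda V and constant UMIs in monoculture and 0.378% in coculture. V segments lie toward the 5′ end of a light chain transcript, away from the 3′ end that Drop-seq captures.

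The light chain was lambda almost throughout. IGKC was at 498 CPM in monoculture and 236 CPM in coculture (log2 ratio -1.07, -1.25 to -0.91). It made up 1.09% (1.06 to 1.12) of light chain constant UMIs in monoculture and 1.12% (0.992 to 1.25) in coculture, intervals that overlap. An IGKC UMI was found in 61.7% of MM.1S cells in monoculture and 16.4% in coculture, at unequal depth. Kappa V genes had 31 UMIs in monoculture against 4962 for lambda V genes. As a share of V and constant UMIs of their own chain, these are 0.594% (0.404 to 0.842) for kappa and 1.04% (1.01 to 1.07) for lambda. Kappa V genes were at 2.97 CPM (2.02 to 4.22) in MM.1S and 2.12 CPM (1.13 to 3.62) in HS-5 monoculture. These intervals overlap, although HS-5 monoculture had no IGKC UMI, so the kappa V share cannot be read as usage. Lambda V genes were at 476 and 2.44 CPM.

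Heavy chain RNA was scarce. Heavy chain constant genes had 374 UMIs in MM.1S monoculture, or 0.0786% of all constant gene UMIs. IGHA1 had 3 UMIs there and 0 in coculture, where 3 UMIs would be 2.40 CPM, so no ratio is given. It is 96.9% identical to IGHA2, which was at 3.45 and 3.21 CPM. IGHG4, a gamma constant gene, held most of these UMIs, at 24.0 CPM in monoculture and 29.7 CPM in coculture. Its log2 ratio of 0.30 (-0.23 to 0.81) includes 0, unlike those of IGLC2, IGLC3, IGLC7 and IGKC.

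JCHAIN and MZB1 were lowered less than the light chain. JCHAIN was at 6664 CPM (6615 to 6714) in monoculture and 4139 CPM (4027 to 4253) in coculture, a log2 ratio of -0.69, and ranked 13 and 16 among all genes. MZB1 was at 2526 CPM (2496 to 2557) and 1800 CPM (1726 to 1876), a log2 ratio of -0.49. Of the summed UMIs of IGLC2, IGLC3, IGLC7, IGKC, JCHAIN and MZB1, JCHAIN took 12.2% in monoculture and 15.3% in coculture, and MZB1 4.61% and 6.65%.

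IGLC3 took a smaller share of the lambda light chain in coculture. It held 18.3% (18.2 to 18.4) of IGLC2 and IGLC3 UMIs in MM.1S monoculture and 9.18% (8.83 to 9.54) in MM.1S cells of the coculture. Over cells with at least 10 of these UMIs, the middle 50% of cells had shares of 15.6 to 20.5% in monoculture (3930 cells) and of 5.06 to 12.8% in coculture (932 cells). The share was 17.8% in the shallowest 25% of monoculture cells and 18.5% in the deepest, and 8.73% and 9.39% in coculture. Among IGLC2 and IGLC3 UMIs in HS-5 cells of the coculture it was 10.9% (9.32 to 12.7). The share thus differed between libraries more than within them, and reads that fit both genes could be counted to either, so the part of counting in this difference was not tested.

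Single MM.1S cells varied around these levels. The share of a cell's UMIs from IGLC2 and IGLC3 had a median of 4.59% in monoculture (from 0 to 12.8%, with 5% of cells under 2.39%) and of 1.83% in coculture (from 0 to 7.25%). Cells under 25% of their group's median were 37 of 3947 (0.937%) in monoculture and 92 of 1513 (6.08%) in coculture. After thinning every cell to 500 UMIs, a light chain UMI was found in 3941 of 3947 monoculture cells (99.8%) and in 1119 of 1131 coculture cells (98.9%), and in 99.9% and 98.5% before thinning. At 500 UMIs the mean was 23.6 light chain UMIs per cell in monoculture and 10.1 in coculture, the coefficient of variation 0.369 and 0.570, and the variance over the mean 3.22 and 3.29. Depth went with the level in opposite directions: from the shallowest to the deepest 25% of cells the light chain went from 51224 to 40149 CPM in monoculture and from 16943 to 23041 CPM in coculture. Cells of 500 to 1000 UMIs, a window chosen after seeing the data, were also compared. The levels there were 47963 CPM in 77 monoculture cells and 19023 CPM in 763 coculture cells, a log2 ratio of -1.33. Their median depths still differed, at 965 UMIs in monoculture and 684 in coculture.

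**Figure D1:**
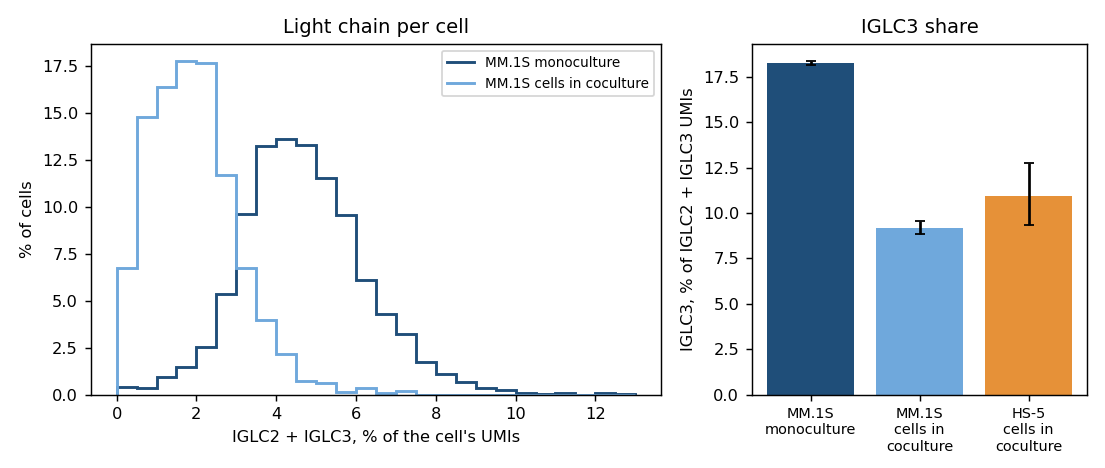
Left, share of each MM.1S cell's UMIs that came from IGLC2 and IGLC3 (x axis, %) against the percentage of cells in bins of 0.5%; right, IGLC3 as a percentage of IGLC2 and IGLC3 UMIs with exact 95% binomial intervals. The monoculture peaks near its median of 4.59% and the coculture near 1.83%, and the IGLC3 share is 18.3% in monoculture and near 10% in both coculture groups.

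Across 3870 monoculture cells thinned to 1000 UMIs, IGLC2 and IGLC3 varied together (Pearson r = 0.61), while IGLC2 and JCHAIN (r = 0.18) and IGLC2 and MZB1 (r = 0.07) hardly did. Near-copies can share misassigned UMIs, and all cells share 1 library. Of 3098 genes found in at least 10% of monoculture cells, those most like the light chain, the 7 genes aside (Pearson's r of log values per 10000 UMIs) across 3947 cells were RPLP1 (r = 0.37), B2M (0.36), RPL34, RPS6 and RPS14 (0.328). RPLP1, RPL34, RPS6 and RPS14 encode ribosomal proteins and B2M the small chain of class I HLA. JCHAIN, at r = 0.333, lay between RPL34 (0.334) and RPS6 (0.332), beside a median r of -0.03 over the 3098 genes. The lowest were DEK (-0.22), SMC4 (-0.21), HSP90AA1 (-0.20), CENPF (-0.19) and HMGB2 (-0.19), among them genes of chromosome condensation and mitosis. These correlations describe cells of unequal depth.

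Genes that act on antibody RNA or protein did not share 1 direction. Of 12 transcription regulators of immunoglobulin genes, 9 reached 10 CPM in MM.1S cells, and 4 of these were higher by 2-fold and none lower, beside 18.7% higher and 5.77% lower of all genes compared. PRDM1, the plasma cell repressor BLIMP-1, went from 36.8 to 153 CPM (log2 ratio 2.03), and TCF3, the E protein that acts on immunoglobulin enhancers, from 25.1 to 92.2 CPM (1.84). XBP1, a driver of the secretory programme, was at 419 and 265 CPM (-0.66) and MEF2C at 41.6 and 40.1 CPM (-0.05). Of 26 genes of folding and assembly, 23 reached 10 CPM, 3 of them higher and 3 lower by 2-fold, against the same 18.7% and 5.77%. DNAJB11, a cochaperone of BiP, was at 117 and 256 CPM (1.12) and the oxidase ERO1A at 26.3 and 57.7 CPM (1.11). The prolyl isomerases FKBP11, at 200 and 44.1 CPM (-2.15), and PPIB, at 85.5 and 30.5 CPM (-1.46), were lowest. All 23 genes of entry into the endoplasmic reticulum and signal cleavage reached 10 CPM, and none differed by 2-fold. SEC61A1, the channel subunit, was highest with a log2 ratio of 0.98 and SEC62 had 0.70, while SRP9 had -0.74 and SRPRA -0.59. The median log2 ratios of these lists were 0.74, 0.16 and -0.02 beside 0.24 over all genes. Of 9 genes of the B cell receptor, surrogate light chain and other receptors, only TNFRSF13B reached 10 CPM, at 117 and 167 CPM (0.51). It is a receptor of B cell survival ligands and part of neither the B cell receptor nor the surrogate light chain. No gene of these 2 thus reached 10 CPM.

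HS-5 cells held light chain UMIs only in the coculture with MM.1S cells. In HS-5 cells of the coculture IGLC2 and IGLC3 were at 520 CPM (492 to 548), JCHAIN at 86.1 CPM, MZB1 at 22.2 CPM and IGKC at 3.89 CPM. In HS-5 monoculture JCHAIN had 6 UMIs and MZB1 had 1, and the other genes had none. Of the 7 genes 4 reached a mean of 10 CPM in HS-5 cells, and these 4 were higher in coculture by 2-fold or more, where 1.28% of the 8812 genes compared were. All 4 passed this minimum through the coculture alone, so their count had to be high. The light chain in HS-5 cells was 2.52% (2.39 to 2.67) of its level in MM.1S cells of the same library. JCHAIN was at 2.08%, IGKC at 1.65% and MZB1 at 1.23%. Less their HS-5 monoculture level, JCHAIN was at 2.06% and MZB1 at 1.22%, while the light chain and IGKC were unchanged. With the same subtraction, the MM.1S-specific genes used to divide the coculture had a median of 1.64% (quartiles 1.25 and 2.49). This was taken over 50 of them, in which the count allowed it. The antibody genes lay in or near this range. The division itself limits UMIs of the MM.1S-specific genes in HS-5 cells, so these genes are no independent reference.

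Most of these UMIs sat in few cells. Of 2141 HS-5 cells in coculture, 1938 had no light chain UMI and 139 had 1. The 41 cells with 5 or more (1.91%) held 85.8% of the 1334 UMIs. These 41 cells also had a median of 2177 UMIs and 14.8 UMIs of MM.1S-specific genes per cell, against 939 and 0.318 in cells with none. The 80 cells with an HS-5 share of 0.80 to 0.95 were at 8519 CPM, and the 2061 cells with a share over 0.95 at 96.4 CPM. In the latter the light chain was 0.468% of the MM.1S level. The MM.1S-specific genes pooled, less their HS-5 monoculture level, were 0.559%. At shares of 0.80 to 0.95 these values were 41.4% and 26.0%, and over 0.99 they were 0.337% and -0.234%. The share is computed from the MM.1S-specific genes, so their percentages follow in part from the bins. The light chain value of 2.52% rests on cells near the limit of the division. Droplets with cells of both lines and free RNA cannot be told apart in these cells. After thinning to 500 UMIs, light chain was detected in 106 of 1839 HS-5 cells of the coculture (5.76%, 9.48% unthinned) and in 0 of 3515 of the monoculture, where 3 cells would be 0.0853%.

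**Figure D2:**
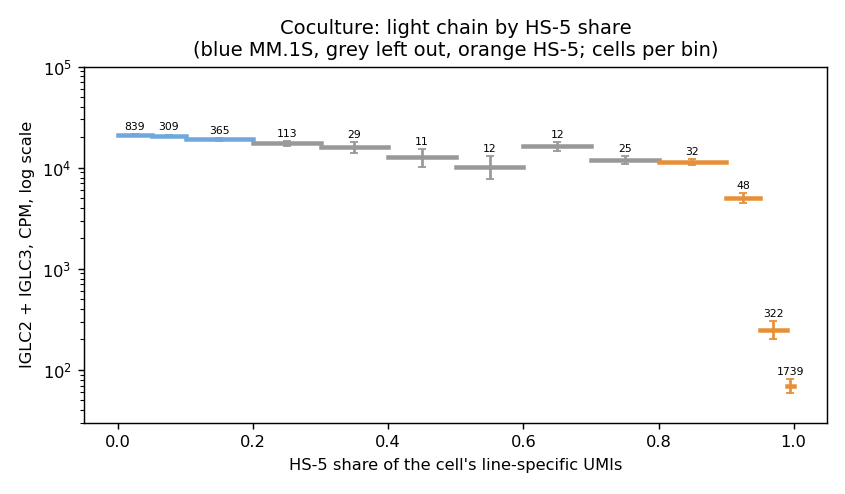
IGLC2 and IGLC3 in CPM (log axis) of coculture cells in bins of the HS-5 share of their line-specific UMIs (x axis, 0 to 1); horizontal bars span each bin, vertical bars are exact 95% Poisson intervals and numbers are cells per bin. The level is about 21101 CPM in the leftmost bin, 11430 CPM at shares of 0.8 to 0.9 and 69.5 CPM over 0.99.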

How the data were processed

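UMI counts per gene and cell of 3 Drop-seq libraries (MM.1S, HS-5 and their coculture) were used as the authors deposited them, as raw whole-number counts; 0 columns belonged to other samples. The submitters' processing notes name Cell Ranger 3.0.2, UMI-tools 1.0.0, STAR 2.5.3a, featureCounts 1.6.4 (Subread), SAMtools 1.9 and GRCh38/hg38. The annotation release and the treatment of reads that match several genes, which decide how UMIs fall on IGLC2 or IGLC3, are not given in the sources used here. Positions and transcripts are those of GENCODE release 29, promoters those of RefSeq.

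Barcodes with under 200 genes were dropped, and the coculture was divided as described. Line-specific genes had at least 50 CPM in their own line. Pooled counts of each line in each library were expressed per 1000000 UMIs (CPM). Ratios are log2(CPM + 1), and genes that averaged 10 CPM or more over the compared cultures were set against a 2-fold limit. Depth sets the precision: 3 UMIs are 0.288 CPM in MM.1S monoculture, 2.40 CPM in MM.1S and 1.17 CPM in HS-5 cells of the coculture, and 0.488 CPM in HS-5 monoculture. UMIs tag molecules at their 3′ end and were not scaled to length.

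The 7 genes, the lists and the tests were chosen with earlier results of these data known. Named beside the 7 genes were immunoglobulin genes with at least 10 UMIs in a line and library, the 2 highest and 2 lowest ratios of lists bearing on antibody production and the 5 genes most and least like the light chain. Scripts were tested on simulated data. Alternatives in cell filter, division, scaling and thinning were tried. Python 3.11.15, numpy 2.4.6, scipy 1.17.1 and pandas 2.3.3 were used.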

Additional observations from a re-analysis of the deposited data

Results flagged for a closer look

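Antibody RNA differed in opposite directions in the cells assigned to each line, and this difference was not tested, since each condition has 1 library. From monoculture to coculture, IGLC2 and IGLC3 together changed by -24133 CPM in MM.1S cells and by 520 CPM in HS-5 cells. JCHAIN changed by -2525 CPM in MM.1S and by 85.1 CPM in HS-5 cells. MZB1 changed by -726 CPM in MM.1S and by 22.04 CPM in HS-5 cells. The HS-5 values rest on few cells: 41 of 2141 held 85.8% of the light chain UMIs, and the 2061 cells with an HS-5 share over 0.95 were at 96.4 CPM. The 41 cells also had 14.8 UMIs of MM.1S-specific genes per cell. Droplets with cells of both lines and free RNA cannot be told apart there, so a change within HS-5 cells themselves is not shown.

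The 202 coculture cells that were left out of both lines, which enter no comparison, also held antibody RNA. The levels lay between those of HS-5 and MM.1S cells of the coculture. They had 15393 CPM (14791 to 16012) of IGLC2 and IGLC3, 3143 CPM of JCHAIN and 1229 CPM of MZB1. A light chain UMI was found in 96.0% of them, and their median was 541 UMIs per cell. Of the 202 cells, 113 had an HS-5 share of 0.2 to 0.3 and 21 had under 5 line-specific UMIs.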

How the results depend on the processing

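IGLC2, IGLC3, IGLV2-28, IGKC, JCHAIN and MZB1 stayed lower in MM.1S cells of the coculture under all 18 alternatives run; other antibody genes were not recomputed. The log2 ratio of IGLC2 and IGLC3, -1.12, moved beyond its counting interval to -1.05 with at least 500 genes per cell, -1.20 with 200 to 2500 genes and under 5% mitochondrial UMIs, -1.09 and -1.08 with shares of 0.1 to 0.9 and 0.05 to 0.95 left out, -1.10 with 20-fold specific genes, -1.36 with median-of-ratios scaling, -1.23 without ribosomal protein genes, -1.16 without immunoglobulin genes, -1.28 with equal weight per cell, -1.23 and -1.05 after thinning to 500 and 1000 UMIs, -1.10 after free RNA was subtracted and -1.33 at 500 to 1000 UMIs. Of the genes past 2-fold, 3 became 5 at 1.5-fold, where IGLC2 and JCHAIN passed too, and numbered from 2 to 4 under the others. The kappa share did not leave its interval in 9 alternatives. Those that change only the division of the coculture could not move the monoculture value. The light chain of HS-5 cells, 2.52% of the MM.1S level, was 2.38% under the filter of 200 to 2500 genes. It was 1.01% with shares of 0.1 to 0.9 left out and 0.457% with 0.05 to 0.95 left out. Alternatives chosen after seeing the data gave 0.558% with antibody genes used in the division, 0.468% at shares over 0.95 and 0.337% over 0.99. The narrower shares hold fewer cells near the limit. With antibody genes in the division, light chain UMIs themselves lower a cell's HS-5 share, so a lower value there was fixed in advance. HS-5 cells with a light chain UMI, 5.76%, became 4.36% with shares of 0.1 to 0.9 left out and 3.38% with 0.05 to 0.95 left out. They became 3.50% with antibody genes in the division, a fall likewise fixed in advance. They were 10.3% after thinning to 1000 UMIs and 9.48% unthinned. For MM.1S cells that share became 99.6% in monoculture under the filter of 200 to 2500 genes and 99.9% unthinned, and in coculture 99.7% with at least 500 genes and 100% after thinning to 1000 UMIs. No paired analysis was possible because each condition has 1 library. Depth limits what is said of IGHA1 and of heavy chain and kappa V segments.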
